A study of Mus musculus with 2 samples.

Results

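Shores were defined here as the CpG-poorer windows that flank CpG-dense, nearly unmethylated DNA in mouse blood. The autosomes were cut into windows of 1000 bp. A window with more than 50 cytosines read at least 10 times in both libraries and a methylation level under 10% in the wild-type (WT) library was taken as an unmethylated island. A shore was a window with 3 to 29 such cytosines that started within 2000 bp of the start of an island. This gave 8354 shores of 165854 windows tested on the autosomes and X, and together they held 99692 of 3026647 shared cytosines. The islands numbered 12291, of which 7192 had at least 1 shore. Of the shores, 6104 started 1000 bp from the nearest island start and 2250 started 2000 bp from it. Islands lay on 1 side of 8218 shores and on both sides of the other 136. The members were thus chosen by cytosine numbers in both libraries and by the WT level of the islands. The choice did not use the level of a shore or the difference between libraries, and those are the measurements described below. Islands are windows of a fixed grid and not annotated CpG islands, so an island edge below means the edge of such a window.

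Reduced representation bisulfite sequencing (RRBS) reads DNA fragments that the enzyme MspI cuts at CCGG sites, and a cytosine that stays C after bisulfite is scored as methylated. The samples were genomic DNA of peripheral blood cells from 1 WT library and 1 library labelled I-PpoI. The latter came from mice that express I-PpoI, an endonuclease that cuts both DNA strands at a long recognition site, in the epithelial cells of the proximal kidney tubule, so the blood cells measured are not the cells named as expressing it. The sources used here do not give strain, age, sex, the driver of the transgene or the number of mice behind each library.

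CpG islands are stretches in which CpG sites are dense, and they often hold the start of a gene. They are kept unmethylated in most cells, while the rest of the mammalian genome is largely methylated. The flanks in which the level climbs from one state to the other are known as shores, and many methylation differences between tissues and blood cell types are found there.

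With 1 library per group there was no replicate check. All tests below compare the reads of these 2 libraries and not the conditions. Blood is a mixture of cell types, and a change in their proportions cannot be told apart from a change within cells. A cytosine had a median coverage of 53 reads in WT, against 49 in I-PpoI. Cytosines on the Y chromosome held 0.486% of the coverage summed over listed nuclear cytosines in WT and 0.238% in I-PpoI. Shores held a median of 10 cytosines, with a median of 608 reads summed over them in WT and 485.5 in I-PpoI.

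Promoters in or at the edge of islands are shown for 4 genes whose shores were among the largest losses described below. Promoter records of other named shores are not shown. The measured CpGs of the 4 promoters were low in both libraries. They all lie in islands, which were chosen for a WT level under 10%, so their low WT level is no contrast to the shores. Sequences are the RefSeq promoter records of GRCm38.p6, from 250 bases before to 50 bases after the gene start, on the strand of the gene, and capitals mark each CpG measured in both libraries.
Hspa5: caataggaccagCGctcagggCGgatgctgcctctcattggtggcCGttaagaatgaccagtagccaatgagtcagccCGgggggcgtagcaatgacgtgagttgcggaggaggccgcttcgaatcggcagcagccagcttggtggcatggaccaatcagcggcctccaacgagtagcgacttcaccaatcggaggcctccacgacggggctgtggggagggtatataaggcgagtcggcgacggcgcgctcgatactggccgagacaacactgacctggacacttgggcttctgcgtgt
Washc1: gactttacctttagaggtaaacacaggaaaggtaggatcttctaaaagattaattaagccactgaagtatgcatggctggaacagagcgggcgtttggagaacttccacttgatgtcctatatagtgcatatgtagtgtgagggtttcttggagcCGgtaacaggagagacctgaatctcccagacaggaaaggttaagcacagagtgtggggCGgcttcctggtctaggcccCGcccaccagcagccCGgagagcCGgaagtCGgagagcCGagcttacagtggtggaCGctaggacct
Ulk4: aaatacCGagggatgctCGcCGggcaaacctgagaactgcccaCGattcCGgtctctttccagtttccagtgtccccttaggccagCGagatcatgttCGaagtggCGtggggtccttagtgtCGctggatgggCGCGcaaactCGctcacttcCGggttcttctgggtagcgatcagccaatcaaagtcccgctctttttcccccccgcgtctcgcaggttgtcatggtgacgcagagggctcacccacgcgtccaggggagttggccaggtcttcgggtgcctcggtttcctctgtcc
Zbtb8os: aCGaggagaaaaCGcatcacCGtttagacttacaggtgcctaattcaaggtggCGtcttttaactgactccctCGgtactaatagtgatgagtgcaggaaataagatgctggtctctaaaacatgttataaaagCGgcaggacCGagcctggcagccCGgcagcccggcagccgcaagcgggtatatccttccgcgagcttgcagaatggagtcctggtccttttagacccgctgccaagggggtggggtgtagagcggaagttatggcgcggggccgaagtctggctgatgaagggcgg
The Hspa5 record lies at chr2:34771840-34772139 on the plus strand. It holds 25 CpGs, of which 4 were measured, at a pooled level of 4.93% in WT and 3.16% in I-PpoI. The 4 lie at the far 5′ end of the record, inside the island, while the gene start lies just past the island edge, in the shore. The record also holds the letters CCAAT-N9-CCACG on the plus strand from position 186, counted from 1 at its 5′ end. That spelling, the endoplasmic reticulum stress element, was searched on both strands and was found in 39 of 32851 promoter records (0.119%). The Washc1 record, chr17:66111296-66111595 on the plus strand, holds 10 CpGs, and the 8 measured had a pooled level of 7.21% in WT and 6.16% in I-PpoI. In the Ulk4 record, chr9:121277123-121277422 on the minus strand, 13 of 23 CpGs were measured, at 6.04% and 5.32%. For Zbtb8os, chr4:129335718-129336017 on the plus strand, 8 of 19 CpGs were measured, and the level was 0.324% in WT and 0.325% in I-PpoI. Pooled levels were thus under 10% in both libraries at all 4 promoters. Single cytosines reached 88.9% in the Hspa5 record, 100% in that of Washc1 and 85.7% in that of Ulk4 in WT, while those of Zbtb8os stayed at or below 4.44%.

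The first comparison asks where the shores stand between islands and the rest of the genome. The median shore was methylated at 15.7% in WT, with quartiles of 6.13% and 68.1%, and at 13.7% in I-PpoI, with quartiles of 5.28% and 61.1%. The median island stood at 4.46% in WT, a value held low by the rule, and the median of 131631 other autosomal windows with 3 to 29 cytosines at 91.2%. Shores thus spanned nearly the whole scale. In WT, 3232 shores (38.7%) were under 10% themselves, 3404 (40.7%) were between 10% and 80%, and 1718 (20.6%) were over 80%. Many shores were thus under the bound used for islands, and the name shore describes their position more than their level. Still, the lower quartile of shores in WT, 6.13%, lay above the upper quartile of islands, 5.78%.

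The level rose with distance from the island. Shores that started 1000 bp from the island start had a median of 10.2% in WT and 8.98% in I-PpoI. Those that started 2000 bp away had a median of 79.8% in WT and 73.8% in I-PpoI. The far shores covered the whole scale. In WT 225 of 2250 were under 10%, 905 were between 10% and 80%, and 1120 were over 80%. With each cytosine of a shore given equal weight, the WT median of the near shores was 15.8%.

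**Figure D1:**
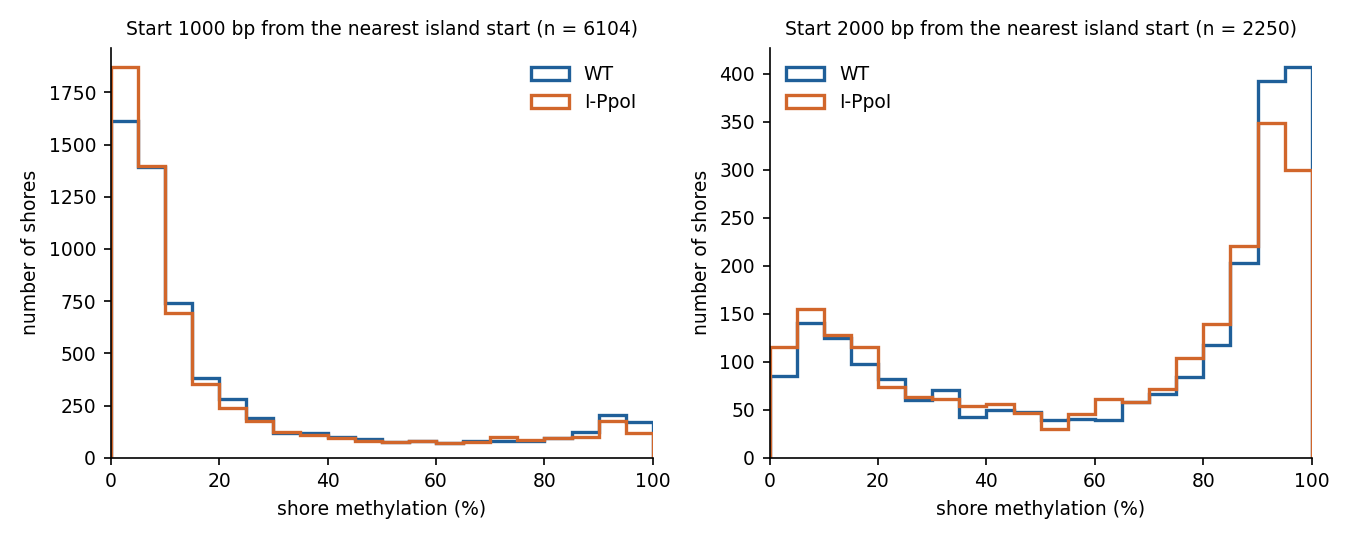
Number of shores (vertical axis) by methylation level in bins of 5 percentage points (horizontal axis), for shores that start 1000 bp (left, n = 6104) and 2000 bp (right, n = 2250) from the nearest island start, in WT (blue line) and I-PpoI (orange line). Near shores are mostly low, with a WT median of 10.2%, and far shores mostly high, with a WT median of 79.8%.

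Single cytosines, in shores with an island on 1 side, showed the climb in finer steps. Within the first 100 bp from the island edge the mean level was 10.5% in WT and 9.54% in I-PpoI. This stretch held 35.5% of the cytosines of such shores. Without CpGs whose strands differed by at least 50 percentage points in both libraries, described below, the means there were 6.93% and 5.90%. Over all CpGs the mean reached 38.9% and 36.5% at 401 to 500 bp, and 50.96% and 48.3% at 801 to 900 bp. Beyond 1200 bp it levelled off, at 60.1% and 57.4% at 1201 to 1300 bp and at 62.0% and 59.7% at 1801 to 1900 bp. Medians rose more steeply than means. The WT median was 1.47% in the first 100 bp, 23.3% at 401 to 500 bp and 78.2% at 1201 to 1300 bp, while that of I-PpoI was 0%, 18.3% and 73.6%. The mean was lower in I-PpoI in all 20 bins of 100 bp, with differences from -3.49 to -0.986 percentage points. The ratio of I-PpoI to WT reads fell over the same stretch, from 0.912 in the first bin to 0.745 at 1701 to 1800 bp.

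**Figure D2:**
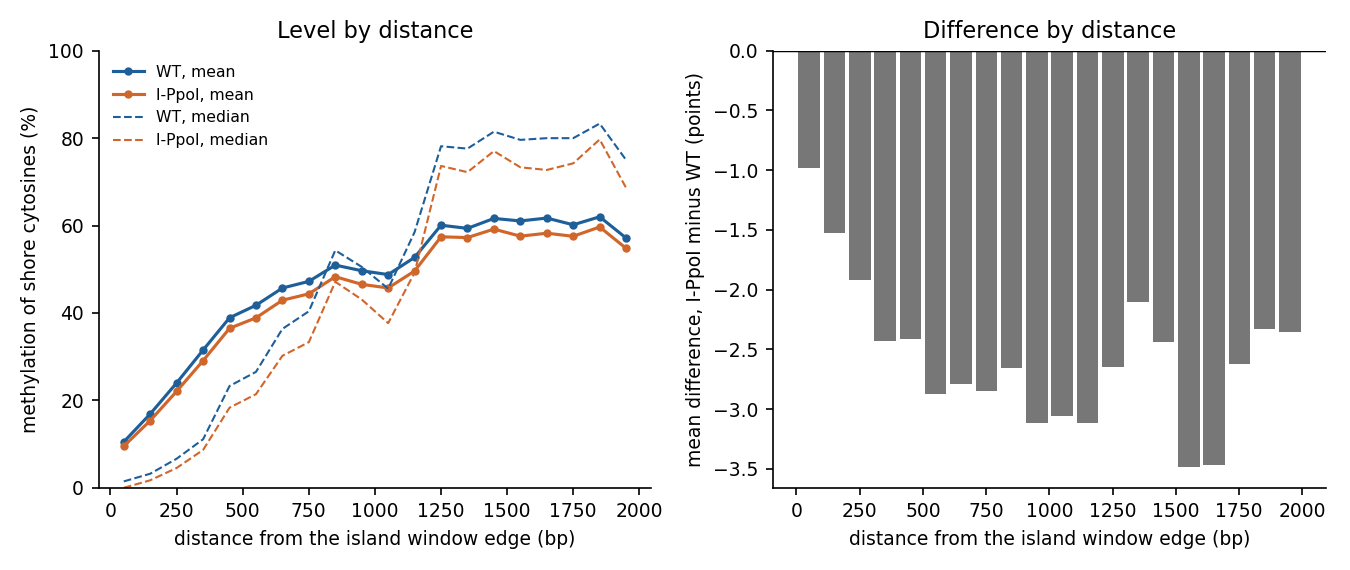
Left, methylation of shore cytosines (vertical axis, %) by distance from the island window edge (horizontal axis, bins of 100 bp) as means (solid lines) and medians (dashed lines) of WT (blue) and I-PpoI (orange). Right, the mean difference, I-PpoI minus WT, in percentage points for each bin. The WT mean climbs from 10.5% to about 60%, and all 20 differences are below 0. Shores with islands on both sides are left out.

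Shores at an intermediate level held cytosines of all levels. Among 2035 shores between 20% and 80%, taken as the mean of both libraries, 25.3% of the cytosines were under 20%, 50.1% were between 20% and 80% and 24.6% were over 80%. Both a cytosine under 20% and one over 80% were present in 1005 of these shores (49.4%). In 339 of them with an island on 1 side, at least 3 cytosines could be read in each 500 bp stretch. The stretch nearer the island had a median of 32.5% in WT, with 26.9% in I-PpoI, and the farther one 69.1% and 61.1%. The farther stretch was the higher one in 271 of the 339 in WT and in 260 in I-PpoI.

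Levels upstream of genes and on the side of the gene were close. Shores 1000 bp from an island that holds the start of a protein-coding gene had a WT median of 10.1% where they lay upstream (n = 1505) and 9.22% where they lay towards the gene (n = 1587). In I-PpoI the medians were 8.86% and 8.13%. At 2000 bp the upstream shores stood at 86.0% in WT against 81.2% in I-PpoI, and those towards the gene at 86.3% and 81.5%. Beside islands with no such start the far shores were lower, at 68.5% in WT and 61.1% in I-PpoI. A protein-coding start lay in the shore itself in 522 cases, and those shores had a median of 6.55% in WT and 5.77% in I-PpoI.

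Strands of the same CpG often disagreed in shores. Both strands were read at 39837 shore CpGs, and at 4669 of them (11.7%) the strands differed by at least 50 percentage points in both libraries, against 5.68% of CpGs over the whole data set. At these CpGs the lower strand had a median of 3.74% and the higher strand 97.1% in WT. Where the promoter records gave the sequence, 544 of 545 such shore CpGs lay in CCGG, the MspI site, against 8.88% of other shore CpGs. In the 7951 shores that kept at least 3 cytosines without the CpGs of unlike strands, the median was 12.8% in WT, with 11.1% in I-PpoI, and the median difference was -1.15 percentage points.

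The second comparison asks how shores differed between the libraries. The median difference of a shore, I-PpoI minus WT, was -1.19 percentage points. The median over all windows tested was -1.23 points, while other windows with 3 to 29 cytosines stood at -1.59 and islands at -0.472. Of the shores, 5709 (68.3%) were lower in I-PpoI, 2568 were higher and 77 were equal, against 66.7% lower over all windows. More shores were lower than higher on all 19 autosomes, with medians between -1.63 and -0.769 points. A drop of 10 points or more was seen in 711 shores (8.51%, against 9.55% of all windows) and a rise of 10 points or more in 73 (0.874%, against 1.80%). I-PpoI had fewer reads than WT in shores, with a ratio of 0.866 between the reads summed over all shores. Thinning both libraries to equal depth left the median difference at -1.11 points.

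The size of the difference followed the level. In shores under 5% the median difference was -0.36 points, and at 5% to 20% it was -1.10 points. It was -3.54 points at 20% to 40%, -6.27 at 40% to 60% (514 shores, median 52.6% in WT and 45.8% in I-PpoI) and -5.84 at 60% to 80%. With cytosines weighted equally the value at 40% to 60% was -3.97 points. At 80% to 95% it was -2.50 and above 95% it was -0.0022 points. Other windows ran through the same course, with -5.44 points at 40% to 60% and -4.97 at 60% to 80%, beside the shores' -6.27 and -5.84. Classes came from the mean of both libraries. When the class came from one strand and the difference from the other, the shores at 40% to 60% stood at -5.19 and -5.30 points and the other windows at -4.66 and -4.73. At 60% to 80% the shores then stood at -4.71 and -4.84 and the other windows at -3.49 and -3.62. The difference between shores and other windows was not tested, as windows are no replicates.

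**Figure D3:**
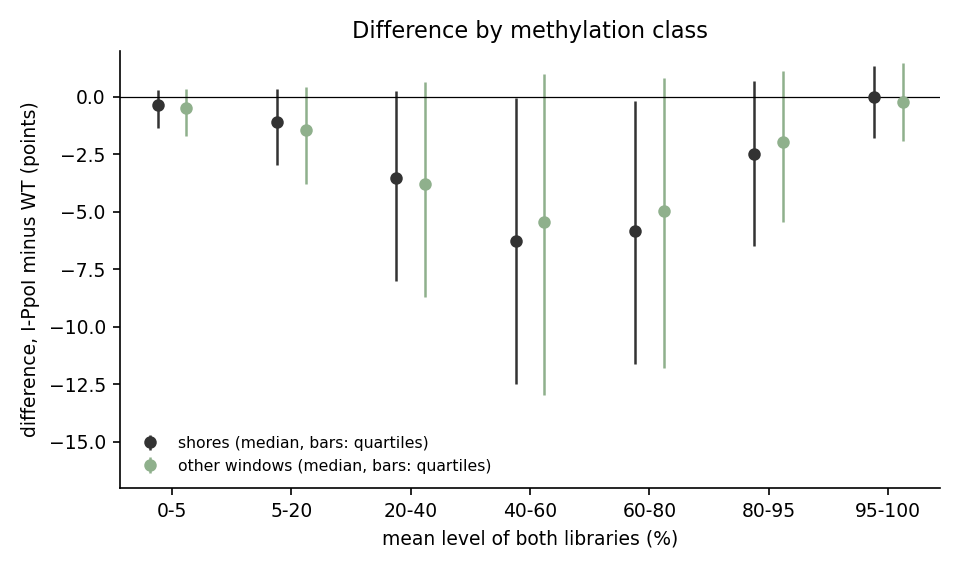
Difference in methylation, I-PpoI minus WT (vertical axis, percentage points), by the mean level of both libraries (horizontal axis, %) for shores (black) and other autosomal windows with 3 to 29 cytosines (green). Points are medians over windows and bars span the quartiles, and both groups are lowest, with medians from -6.27 to -4.97 points, from 40% to 80%.

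Single cytosines also differed most at intermediate levels. Shore cytosines between 20% and 80% had a mean of 49.97% in WT against 44.2% in I-PpoI, a difference of -5.76 points. By Fisher's exact test on each cytosine, at a Benjamini-Hochberg adjusted p under 0.01 and a change of at least 25 points, 481 of 99692 shore cytosines (0.482%) were lower in I-PpoI and 51 (0.0512%) were higher. Over all 3026647 cytosines the shares were 0.429% and 0.0561%. The shares in shores were thus near those of the whole data set in both directions.

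Whole shores were then tested by Fisher's exact test on reads summed over their cytosines, with the same thresholds. By this test 56 shores (0.670%) were lower in I-PpoI, against 1.00% of all windows, and 3 (0.0359%) were higher, against 0.0742% of all windows. Low shores have little room to lose 25 points. Among the 3413 shores at 25% or more in WT, 1.64% were called lower, against 1.27% of all windows at that level. Of these windows, however, 103603 of 130982 were over 80% in WT, against 1718 of the 3413 shores. Within level classes shores were called lower less often than other windows with 3 to 29 cytosines. The shares were 1.08% against 2.10% at 20% to 40%, and 4.28% against 6.50% at 40% to 60%. They were 3.21% against 5.26% at 60% to 80%, and 0.170% against 0.277% at 80% to 95%. None of the 12291 islands was called in either direction, and at under 10% in WT none could have been called lower. One read can cover several cytosines and then enters the sum more than once, so these p-values are too small where cytosines share reads. With reads averaged over the cytosines of a window before the test, 0 of the 8354 shores passed, and 20 windows in all were called lower and 2 higher. A test scaled by the spread between the cytosines of a window called 4 shores lower and 0 higher, against 0.0687% of all windows lower and 0.00181% higher. The calls below therefore describe the largest differences between these 2 libraries, most of which did not pass the test that takes the spread between cytosines into account.

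**Figure D4:**
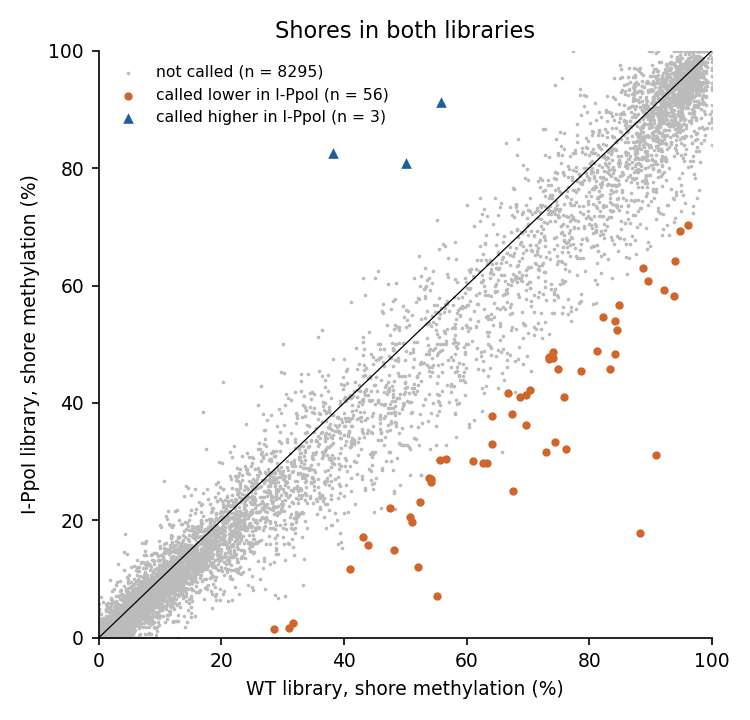
Methylation level of each of the 8354 shores in WT (horizontal axis, %) and in I-PpoI (vertical axis, %), with the line of equality. Orange points are the 56 shores called lower in I-PpoI, blue triangles the 3 called higher and grey points the rest, and most called shores start from an intermediate or high WT level.

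The 56 shores called lower had a median of 69.7% in WT and 34.8% in I-PpoI. Their WT levels ran from 28.6% to 96.1%. Equal numbers, 28 and 28, lay at 1000 bp and 2000 bp from the island start, which is 0.459% and 1.24% of the shores at those distances. Among shores at 25% or more in WT, the shares were 1.65% and 1.63%. The 3 called higher all lay at 2000 bp. Calls were most frequent in the sparsest shores, as in other windows. With 3 to 5 cytosines 31 of 1963 shores (1.58%) were called lower, with 6 to 10 there were 17 of 2445, with 11 to 20 there were 7 of 2539 and with 21 to 29 there was 1 of 1407. In other windows the shares at these cytosine numbers were 2.01%, 0.842%, 0.380% and 0.267%. The sparsest shores also had the highest WT median, 49.2%, against 7.14% in the densest. Every cytosine was lower in 27 of the 56. Without the CpGs of unlike strands 57 shores were called lower, 55 of them among the 56. Of the 56, both strands had been read in 45, and both were lower in 39 of these and lower by at least 10 points each in 33. The islands beside all 59 called shores had a median of 4.95% in WT and 4.27% in I-PpoI, where the rule left no room for a large loss.

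Of the losses 12 are named, the largest among called shores with at least 5 cytosines, 100 reads per library, 80% of cytosines moving together and a protein-coding gene within 1000 bp. Inside a gene means within its whole span in the RefSeq gene table, which can begin before the start of a printed promoter record. The adjusted p-values with them are from Fisher's exact test on summed reads, and differences carry 95% Newcombe intervals for counting error alone.

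The largest of these was beside Washc1, which encodes a subunit of the WASH complex that builds actin on endosomes. This shore (chr17:66110001-66111000, upstream of the gene) was methylated at 83.5% in WT and 45.9% in I-PpoI over 8 cytosines. The difference was -37.6 points (-43.3 to -31.6, adjusted p = 1.7e-32 by Fisher's exact test). On averaged reads the adjusted p of the exact test was 0.052, and with the scaled test it was 0.33. Of the 8 cytosines 5 were called lower one by one, and they were the ones 781 to 879 bp from the island edge. At 782 bp, for example, the level was 76.6% of 124 reads in WT and 18.9% of 53 reads in I-PpoI. The 3 cytosines nearer the island, at 709 to 734 bp, were not called. At the CpG of 733 and 734 bp, the reverse strand stood at 95.1% in WT against 76.5% in I-PpoI, while the forward strand had 96.2% and 100%. The cytosine at 709 bp was at 80% and 78.6%.

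Fzd8, a receptor of the Frizzled family for Wnt ligands, had a shore inside the gene (chr18:9215001-9216000) at 84.2% in WT and 48.3% in I-PpoI over 9 cytosines. The difference was -35.8 points (-43.6 to -27.5, adjusted p = 1.2e-14, exact test). Here 2 cytosines of different CpGs were called lower one by one. At 1030 bp from the island edge the level was 100% of 32 reads in WT and 28.0% of 25 in I-PpoI, and at 1037 bp it was 80.6% of 31 reads and 8% of 25. The cytosine at 1039 bp went the other way, from 81.2% in WT to 91.7% in I-PpoI.

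Ulk4 encodes a kinase-like protein of the unc-51 family that lacks normal kinase activity. The shore (chr9:121278001-121279000), within the annotated span of the gene but upstream of the start printed above, was at 93.8% in WT against 58.2% in I-PpoI, and all 6 cytosines were lower. The difference was -35.6 points (-43.4 to -27.4, adjusted p = 1.1e-14, exact test). The steepest step was at 394 bp, with 93.8% of 32 reads in WT and 24.2% of 33 in I-PpoI. The farthest cytosine, at 491 bp, moved least, from 75.8% to 69.2%. The promoter printed above lies in the island and was at 6.04% and 5.32%.

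The shore of Hspa5 had the lowest I-PpoI level of the 12. Hspa5 encodes BiP, the main Hsp70 chaperone of the endoplasmic reticulum. This shore (chr2:34772001-34773000) holds the start of the gene, with 31.0% in WT against 1.59% in I-PpoI over 13 cytosines. The difference was -29.4 points (-36.0 to -23.1, adjusted p = 3e-18, exact test). All 13 cytosines were lower, and 12 of them were at 0% in I-PpoI. Coverage was shallow, at most 20 reads per cytosine in WT and 24 in I-PpoI, and all were on the reverse strand. The WT levels were nearly the same at each cytosine, between 25% and 40%, and no single cytosine was called. The scaled test called this shore (adjusted p = 0.00044), but Fisher's exact test on averaged reads did not (adjusted p = 1). The window next to it, its island, stood at 4.95% in WT against 4.67% in I-PpoI.

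Among the 12, the scaled test also called 2 shores with more cytosines. B3galt6 makes part of the linker that joins glycosaminoglycan chains to proteins. Its shore inside the gene (chr4:155991001-155992000) was at 52.4% in WT against 23.1% in I-PpoI over 27 cytosines, of which 23 were lower, and weighting the cytosines equally gave -20.1 points, short of the 25 needed for a call. The shore beside Ccdc116 (chr16:17148001-17149000), a coiled-coil protein gene, was at 67.4% and 38.1% over 20 cytosines, 19 of them lower. It lies outside Ccdc116 and overlaps Ydjc, the next gene. Single cytosines called lower numbered 6 in each of these shores.

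The other 6 named losses followed. Utf1, a chromatin factor of pluripotent cells, had a shore at its end (chr7:139945001-139946000) at 69.8% in WT and 36.3% in I-PpoI. The shore inside Tmem250-ps (chr2:26138001-26139000) was at 81.3% and 48.9%. Pfkfb4 sets the level of fructose 2,6-bisphosphate, an activator of glycolysis, and its shore (chr9:108989001-108990000) was at 84.6% and 52.4%. Every cytosine of these 3 shores was lower, 8, 7 and 7 in number. Pstpip2 encodes a membrane-bending adaptor of macrophages, and its shore (chr18:77796001-77797000) was at 69.7% and 41.3%. With reads summed by strand, the reverse strand of this shore was at -45.3 points, while the forward strand was 5 points higher. Of its 7 cytosines, 3 forward and 4 reverse, 6 were lower and 1 was higher, so forward cytosines were among the lower ones. Dlgap1, a scaffold of the postsynaptic density, had a shore (chr17:70819001-70820000) at 84.9% and 56.7%. Zbtb8os, a cofactor of the tRNA ligase complex, had one (chr4:129336001-129337000) at 54.3% and 26.6%, with all 6 cytosines lower.

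Gains were few. Clasp1, which binds the plus ends of microtubules, had the only called gain that met the minimums for naming. Its shore inside the gene (chr1:118457001-118458000) was at 50.2% of 263 reads in WT and 80.9% of 110 reads in I-PpoI. The difference was 30.7 points (20.4 to 39.4, adjusted p = 6.8e-07 by Fisher's exact test). Of its 7 cytosines 6 were higher and the other was at 100% in both. Single levels ran from 25.8% to 100% in WT and from 40% to 100% in I-PpoI. The other 2 gains were chosen for mention after their values were seen. The shore inside Tmem94 (chr11:115767001-115768000) rose from 55.8% to 91.2% over 5 cytosines and that inside Cerk, the ceramide kinase gene (chr15:86183001-86184000), from 38.2% to 82.5% over 4. I-PpoI had 80 and 40 reads there, so these were the thinnest of the 3, and none of the 3 passed the scaled test or the test on averaged reads.

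**Figure D5:**
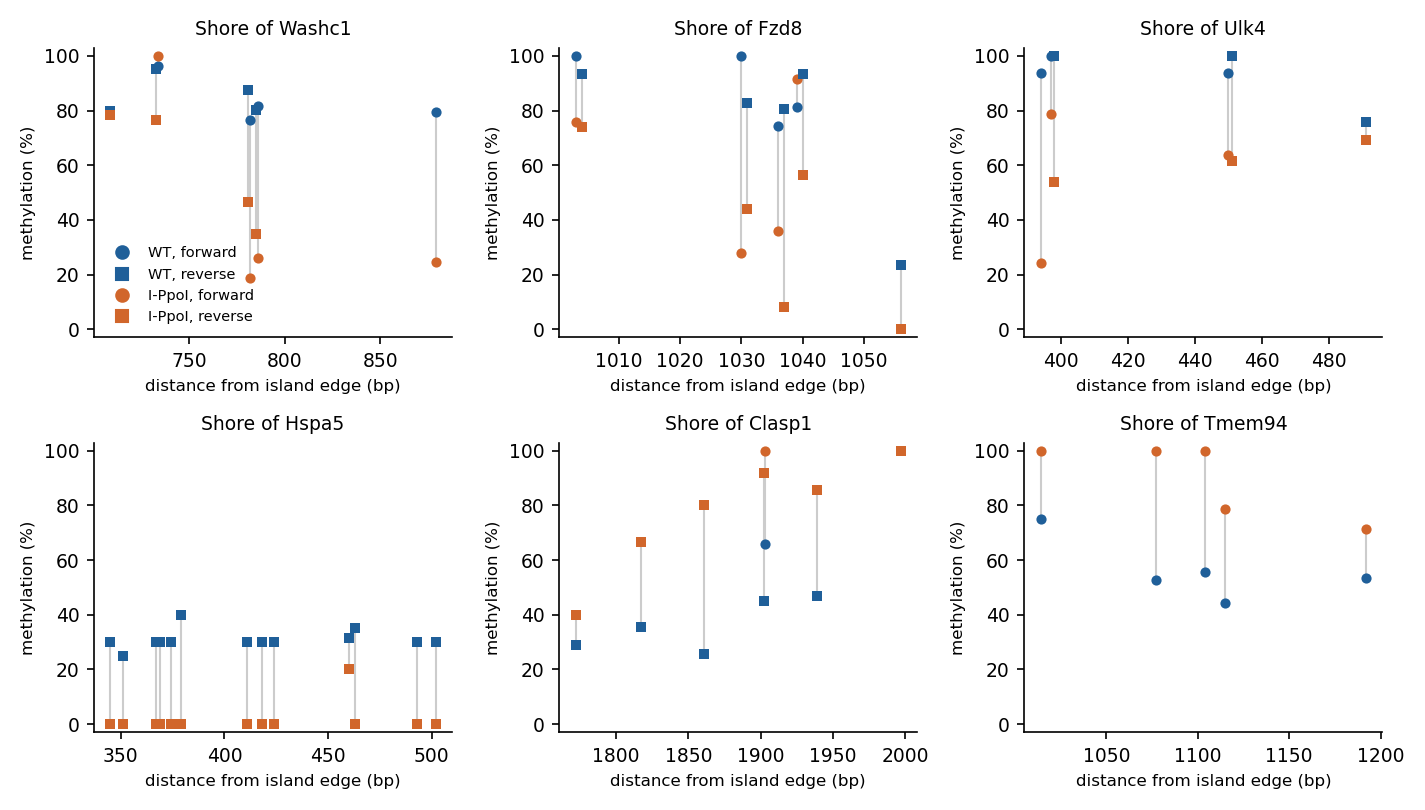
Methylation level (vertical axis, %) of each cytosine by its distance from the island edge (horizontal axis, bp) in the shores of Washc1, Fzd8, Ulk4, Hspa5, Clasp1 and Tmem94, in WT (blue) and I-PpoI (orange). Circles are forward-strand and squares reverse-strand cytosines, and grey lines join both libraries. In the shore of Hspa5, 12 of 13 cytosines are at 0% in I-PpoI.

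Shores of genes that bear on blood, on DNA breaks and on the kidney were then read as lists. A shore was assigned to a gene when its island lay within 1000 bp of the start of the gene or when it held the start itself. The 9 lists held 187 shores in all, of which 2 (1.07%) were called lower and 0 higher, against 0.670% and 0.0359% of all shores. Of these 187, 72.2% were lower in I-PpoI, against 68.3% of all shores. With so few calls expected at that rate, no list can be set apart from the rest by its calls.

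Transcription factors that set blood lineages had 40 shores at 26 of 40 genes and a median of 21.4% in WT and 18.8% in I-PpoI. None was called, 25 of the 40 were lower and 15 higher, beside 68.3% lower over all shores. The shore of Fli1, an ETS factor of megakaryocytes and endothelium, had the most reads and was at 20.5% in WT against 16.1% in I-PpoI (-4.48 points, -6.65 to -2.29). Of its 24 cytosines 12 were lower and 11 higher, and the adjusted p of the scaled test was 0.39. Genes of immune signalling had 23 shores, with a median of 10.04% and 8.45%, of which 20 were lower, beside the same 68.3%. The 1 called was inside Socs3, the feedback inhibitor of cytokine signalling (chr11:117967001-117968000), at 73.5% in WT and 47.5% in I-PpoI over 16 cytosines, 15 of them lower. On the forward strand its 15 cytosines stood at -28.8 points together, and the 1 on the reverse strand was 0.932 points higher. Coverage was at most 37 reads per cytosine in WT and 33 in I-PpoI. The scaled test called this shore too, but the test on averaged reads did not. At equal depth the difference was -24.1 points, just short of a call. At a coverage minimum of 20 reads 3 of its cytosines were left, and it was not called (-13.3 points, adjusted p = 0.15 by Fisher's exact test). Neutrophil and monocyte genes had 1 shore, which was not called. Lymphocyte surface genes had 0 shores, so shores could not be used to check the cell types of the blood samples.

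Homeobox genes, which pattern the embryo, had low shores throughout. Their 49 shores had a median of 12.01% in WT against 11.3% in I-PpoI. The highest was at 33.9% in WT, while the highest shore of the blood factors was at 95.8%. Of the 49, 35 were lower and 13 higher, near the share over all shores. None was called, but only 2 of the 49 were at 25% or more in WT, and no other could lose 25 points.

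The genes that write, read and erase methylation had 16 shores, with a median of 18.2% in WT and 12.2% in I-PpoI. The median difference of these shores was -1.14 points, and none was called. Of the 16, 12 were lower and 4 higher. A drop of 10 points or more was seen in 5, against 8.51% of all shores, and a rise of that size in 0. This was not tested. Uhrf2, a relative of the maintenance factor Uhrf1, was at 4.12% and 3.07% in its best-read shore. Genes of the DNA damage response had 19 shores, with a median of 12.4% and 11.6%, and none was called. The best-read one belonged to Gadd45b, a stress-induced gene, at 1.27% in WT and 1.13% in I-PpoI. Kidney tubule genes had 4 shores at 3 genes, all low, and the best-read one, of Emx1, which is also in the homeobox list, was at 12.01% and 11.9%.

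Ribosomal protein genes had 37 shores spread over the scale, from 0% to 97.2% in WT, with a median of 44.5% in WT and 34.8% in I-PpoI and a median difference of -0.71 points. One was called, inside Rps10, at 64.1% in WT and 32.9% in I-PpoI over 4 cytosines. Of the 4, 2 were lower and 2 higher, and with the cytosines weighted equally the difference was -13.8 points, so this call rests on the deeper cytosines. The median levels of a list can differ more than its median difference, as here, since each is taken over shores on its own.

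The edges of the rule were checked by level alone. Shores beside islands at 9% to under 10% in WT (n = 270) had a median of 18.3% in WT and 16.7% in I-PpoI, and windows beside dense windows just outside, at 10% to under 11% (n = 181), 19.5% and 17.3%. Beside islands of 51 to 55 cytosines the medians were 19.5% and 16.03%, and beside windows of 46 to 50 cytosines 21.5% and 18.4%. Shores with 27 to 29 cytosines stood at 6.84% and 5.79%, and windows beside islands with 30 to 32, which the rule leaves out, at 6.47% and 5.55%. Levels on either side of each threshold were close.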

How the data were processed

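Per the file headers, the deposited tables hold 1 row per CpG cytosine and strand, with the count of reads over it and the percent of those reads showing C or T. The submitters' processing notes name methylKit. Which aligner and build were used is not given in the sources used here. However, 99.94% of 428017 listed cytosines inside RefSeq promoter records of GRCm38.p6 fell on a CG, and that build is used for coordinates. The methylated count was percent C times coverage, whole within 1e-06 at 100% of cytosines.

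Cytosines above the 99.9th percentile of coverage (284 reads in WT, 252 in I-PpoI) were left out of values. Reads were summed per window and compared by Fisher's exact test (two-sided, scipy 1.17.1, numba 0.67.0), adjusted over 165854 windows of at least 3 cytosines, and called at an adjusted p under 0.01 and 25 percentage points. The test was run on simulated data in which each cytosine was drawn on its own. Such data hold no reads shared between cytosines, so this check cannot show how shared reads affect the p-values. The members, lists and naming rule were chosen with earlier results of these data known. Up to 12 called shores each way were named by size, with the minimums given above, and from each list up to 3 called shores or the 1 with the most reads. For 2 lists that shore is not reported here. Alternatives changed coverage, strand, depth, weighting, thresholds, test, window phase and rule. The tests without CpGs of unlike strands and on averaged reads were added after seeing the data. Neither MACS nor MEME was run.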

Additional observations from a re-analysis of the deposited data

How the results depend on the processing

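No paired analysis was possible because each group has 1 library, and for the same reason no library could be left out. The 56 shores called lower became 33 at a coverage minimum of 20 reads and 18 at 30, 4 with the scaled test, 0 with averaged reads, 249 at 15 points, 238 under a fold rule of 2, 30 with at least 5 cytosines, 32 with islands under 5%, 35 with islands of over 80 cytosines and 28 for starts within 1000 bp. Of the 56, 20 were also called at 20 reads, 24 under the fold rule, 21 on forward cytosines alone and 22 on reverse ones. The 3 called higher became 0 at 20 or 30 reads, with the scaled test, with averaged reads or within 1000 bp, 5 on forward cytosines, 10 at 15 points and 25 under the fold rule. The median difference over shores moved to -0.962 points at 30 reads, -1.01 on forward and -1.02 on reverse cytosines, -1.08 with at least 5 cytosines, -0.986 with islands under 5% and -1.002 within 1000 bp. At 1000 bp the WT median moved to 8.81% and 7.49% at 20 and 30 reads, 9.46% on forward and 9.82% on reverse cytosines, 15.8% with cytosines weighted equally, 9.61% with larger islands and 7.40% without CpGs of unlike strands. At 2000 bp it moved to 72.6%, 62.6%, 74.4%, 73.2%, 72.1% with larger islands and 81.9% without those CpGs. The difference at 40% to 60% moved to -3.97 points with equal weights. Single cytosines called lower fell to 245 on forward and 236 on reverse strands, which hold fewer cytosines, and to 233 at equal depth, and those called higher to 21, 29 and 20, or rose to 88 at 15 points. The 2 list shores called lower became 0 at 20 or 30 reads and with averaged reads, and 1 on either strand, with equal weights, the scaled test or equal depth. The loss in the shore of Pstpip2 reversed to 5 points on the forward strand. The cause of these changes was not tested. The number called lower stayed within 1.5 times under the other alternatives, between 44 and 61.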

Other observations

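Cytosines listed in 1 library alone differed between the libraries in shores. Of 112451 shore cytosines listed in WT, 12703 (11.3%) had no entry in I-PpoI, and their mean level was 42.6%, against 28.8% for the shared ones. Of 104121 listed in I-PpoI, 4373 (4.20%) had none in WT, with a mean of 22.3% against 26.9%. Their median coverage was 14 (WT) and 12 (I-PpoI) reads, near the minimum of 10. On the X chromosome, which the rule leaves out, 147 windows met the other conditions, with a median of 8.67% in WT and 8.37% in I-PpoI, and none was called. Another 2305 windows beside islands held 30 to 50 cytosines and are no shores under the rule.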
